A study of Mus musculus with 8 samples.

Results

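The core pluripotency factors are transcription regulators that are active together in embryonic stem cells (ESCs) and are switched off in most other tissues. The 5 rows described here, Pou5f1, Sox2, Nanog, Sall4 and Utf1, were taken by gene name from the 22878 rows of each expression file. No level entered this rule, but the factors were chosen with earlier results of these data known. Pou5f1 encodes Oct4, a POU-domain protein, and Sox2 encodes an HMG-box protein. The Oct4 and Sox2 proteins bind side by side at composite DNA elements and activate other pluripotency genes as well as their own. Nanog encodes a homeodomain protein that strengthens self-renewal, and mouse ESC cultures are known to hold cells with high and with low Nanog. Sall4 encodes a zinc finger protein that binds the NuRD deacetylase complex and Oct4, and Utf1 encodes a chromatin-bound protein whose gene is itself a target of Oct4 and Sox2.

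RNA-seq was carried out on 5 mouse lines. R1 is an ESC line, and 16-6, 32, S8 and T2 are secondary iPSC lines, that is, iPSCs made from the somatic cells of mice that were themselves grown wholly from iPSCs. The source cells were taken from 8-week-old mice and were hematopoietic for 16-6, adipocyte progenitors for 32, epidermal for S8 and stomach lining for T2. Of the 8 libraries, 2 each came from R1, 16-6 and 32, and S8 and T2 gave 1 apiece. Per the methods of the study, the source cells of the 4 iPSC lines carried Oct4, Sox2, c-Myc and Klf4 transgenes that respond to doxycycline, which was withdrawn before the lines were picked. The iPSC lines were cultured, as was R1, with LIF on mitomycin C-treated fibroblasts from ICR embryos. The files hold 1 value per gene, so that transgene and endogenous transcripts of Pou5f1 and Sox2 cannot be told apart, while Nanog, Sall4 and Utf1 were not among the transgenes. The labels give embryo as the tissue of every library, and each iPSC line stands for its tissue of origin alone.

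Expression is given as FPKM, that is, sequenced fragments scaled to transcript length in kilobases and to 1000000 mapped fragments, and each value has a lower and upper limit of confidence. Every deposited value was divided by the same constant, chosen so that the median of the library totals became 1000000. Ratios between values were not affected. The fragments implied by the confidence limits summed, per library and in units of 1000000, to between 15.5 and 16.7. They are not read counts. The study lists far more total reads for the S8 and T2 libraries than for the others, and a lower share of them uniquely mapped. The filter on low values asked for an FPKM of 1 or more in any library, and 13693 rows, all 5 factors included, passed it. Of 10 lineage regulators that mark differentiating cells, such as Gata4, Pax6 and Sox17, 8 passed it, and the 10 together summed to between 10.1 and 43.6 FPKM per library. Markers of fibroblasts, the cell type of the feeder layer, were present in every library, and their levels are given with the results that they move with.

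The gene models of the factors lie, in mm9, at chr17:35642984-35647722 (Pou5f1), chr3:34548927-34551382 (Sox2), chr6:122657586-122663796 (Nanog), chr2:168573832-168592701 (Sall4) and chr7:147129755-147131011 (Utf1). The 250 bases before the transcription start are shown for Pou5f1, Utf1, Sox2 and Nanog, which are known targets of the Oct4 and Sox2 proteins. The sequences are from RefSeq on GRCm38.p6, where 4 of the 5 factors matched and Sall4 had no window. Pou5f1 and Nanog had 2 windows each, of which the first is shown. All lie on the + strand, at chr17:35505782-35506031 (Pou5f1), chr7:139943606-139943855 (Utf1), chr3:34649745-34649994 (Sox2) and chr6:122707239-122707488 (Nanog). Capitals mark the octamer core ATGCAAA, the Sox core CATTGT and the GC box GGGCGG, on either strand.
Pou5f1: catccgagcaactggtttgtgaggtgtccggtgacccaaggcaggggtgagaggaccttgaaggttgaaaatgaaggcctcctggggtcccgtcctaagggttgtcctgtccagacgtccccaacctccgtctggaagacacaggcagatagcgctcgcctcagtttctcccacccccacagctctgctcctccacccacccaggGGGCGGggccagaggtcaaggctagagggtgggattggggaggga
Utf1: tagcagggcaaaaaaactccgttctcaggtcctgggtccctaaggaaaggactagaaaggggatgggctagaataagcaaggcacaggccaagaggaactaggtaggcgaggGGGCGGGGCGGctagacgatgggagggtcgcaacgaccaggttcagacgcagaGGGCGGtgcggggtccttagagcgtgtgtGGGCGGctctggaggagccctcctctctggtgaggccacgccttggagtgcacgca
Sox2: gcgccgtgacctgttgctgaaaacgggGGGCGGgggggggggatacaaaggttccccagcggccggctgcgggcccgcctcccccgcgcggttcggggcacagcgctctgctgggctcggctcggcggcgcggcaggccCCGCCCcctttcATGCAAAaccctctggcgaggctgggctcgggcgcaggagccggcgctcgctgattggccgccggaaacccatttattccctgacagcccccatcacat
Nanog: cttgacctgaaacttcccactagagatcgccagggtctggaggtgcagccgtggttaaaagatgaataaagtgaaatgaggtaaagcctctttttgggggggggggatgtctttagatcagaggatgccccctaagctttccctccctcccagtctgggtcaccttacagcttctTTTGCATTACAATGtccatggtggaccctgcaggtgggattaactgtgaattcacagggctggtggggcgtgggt
In the Nanog window, the reverse complement of the Sox core starts 67 bases before the start site and that of the octamer core 75 bases before it, 1 base apart. This exact spelling, the Sox core followed after 1 base by the octamer core, was present in 2 of 32851 windows of the same length. Both are windows of Nanog, which has a second annotated start. Other spellings of a composite element were not searched, so this share does not show how common such elements are. The octamer core alone was in 4.12% of all windows, the Sox core in 10.7% and the GC box in 32.7%. The Sox2 window held an octamer core 99 bases before the start and 2 GC boxes. The Utf1 window held 4 GC boxes, of which 2 overlap by 1 base, and the Pou5f1 window held 1 GC box. These letters describe the windows only, and no binding was measured in these libraries.

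All 5 factors were among the more highly expressed genes in every library. Pou5f1 exceeded at least 98.9% of all rows in each library, Utf1 at least 98.6%, Sox2 at least 96.5%, Sall4 at least 95.1% and Nanog at least 91.9%. FPKM is per length, so the factors can be ranked within a library. In both R1 libraries the order was Pou5f1, Utf1, Sox2, Nanog and Sall4, with confidence limits that did not overlap between neighbours. In 16-6 the order was the same with the Nanog row taken alone, but the limits of Sox2 and Nanog overlapped in both libraries. In 32 Nanog stood above Sox2. In S8 Utf1 stood above Pou5f1, and in S8 and T2 the Nanog row was the lowest of the 5. The place of Nanog depends on an overlapping row, Nanogpd, described below. With Nanogpd added, Nanog reached 199 and 202 FPKM in 16-6, above Sox2 at 157 and 162. In T2 the sum was 147 FPKM, above Sall4 at 142, and in S8, at 116, it stayed the lowest.

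**Figure D1:**
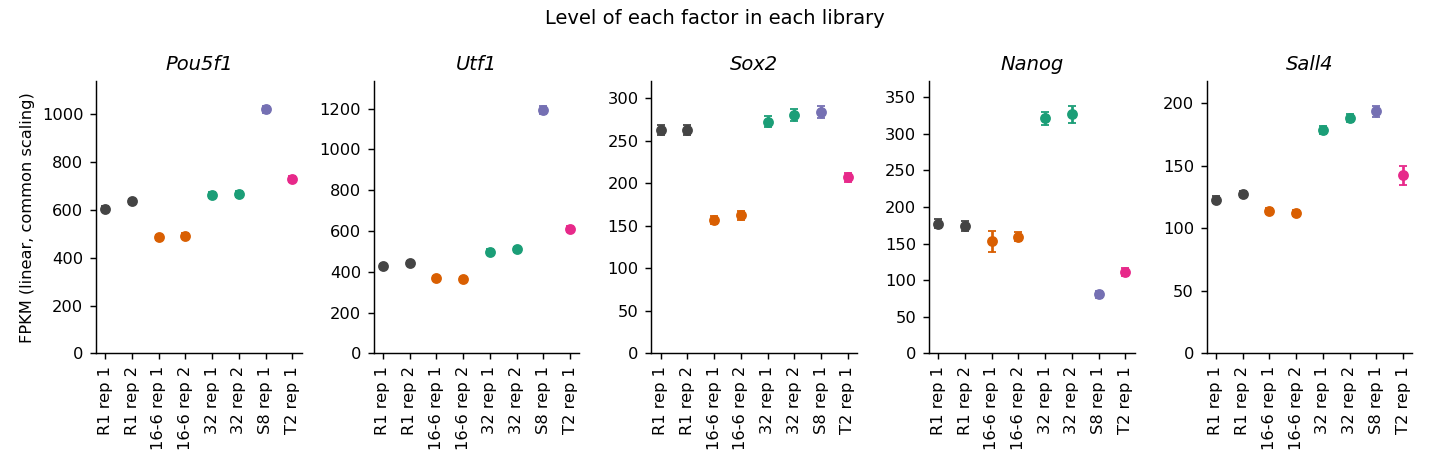
FPKM of each factor (vertical axis, linear, from 0) in the 8 libraries (horizontal axis), with the deposited confidence limits as bars and 1 colour per line. The S8 library is the highest for Pou5f1 at 1020 and for Utf1 at 1193, and the lowest for Nanog at 80.8, while the 16-6 libraries are the lowest for the other 4 factors.

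To compare the lines, log2(FPKM + 1) was fitted with limma, and the adjusted p is the Benjamini-Hochberg value over all 13693 rows. Replicate libraries lay close together, by between 0.0553% and 5.25% of the mean for the factors, so small differences passed the test across the whole transcriptome. Between 34.5% (S8 against T2) and 66.7% (S8 against R1) of all rows passed an adjusted p of 0.05 in a pair of lines, and 88.4% did so in the F test over the 5 lines, which all 5 factors also passed. A second threshold therefore also required at least a 2-fold difference. S8 and T2 had no replicate, and the test assumes that they vary as the replicated lines do. Batch and line cannot be told apart for them.

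Pou5f1 was at 605 and 636 FPKM in the R1 libraries, 485 and 492 in 16-6, 661 and 668 in 32, 1020 in S8 and 730 in T2. The 16-6 libraries lay below all others and the S8 library above all others. Relative to R1, Pou5f1 was lower in 16-6 by a log2 difference of -0.34 ± 0.04 (SE, adjusted p = 0.00266) and higher in S8 by 0.72 ± 0.05 (adjusted p = 0.00035) and in T2 by 0.23 ± 0.05 (adjusted p = 0.0172, and 0.0867 after quantile normalization). Line 32 did not differ from R1 at this threshold, with a log2 difference of 0.10 (95% interval -0.02 to 0.21, adjusted p = 0.11). That value passed as lower after quantile normalization (-0.21, adjusted p = 0.0315) and as higher after median-of-ratios scaling (0.18, adjusted p = 0.0119), so its direction was not settled. Between iPSC lines, the largest difference in Pou5f1 was that of 16-6 against S8, at -1.06 ± 0.05 (adjusted p = 0.000126), which is 2.09-fold between the FPKM means. For 32 against T2 the difference was -0.14 (95% interval -0.28 to 0.01, adjusted p = 0.093).

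Sox2, the partner of Oct4 at composite elements, was at 263 FPKM in both R1 libraries, 157 and 162 in 16-6, 272 and 280 in 32, 284 in S8 and 207 in T2. Lines R1, 32 and S8 thus formed a narrow upper range, with T2 below it and 16-6 lowest. Sox2 was lower than in R1 in 16-6, by a log2 difference of -0.71 ± 0.04 (adjusted p = 0.000222), and in T2, by -0.34 ± 0.05 (adjusted p = 0.00285). The 16-6 value was the largest difference from R1 of any factor in that line. It did not pass the test in 32, at 0.07 (95% interval -0.02 to 0.17, adjusted p = 0.148), or in S8, at 0.11 (95% interval -0.005 to 0.23, adjusted p = 0.0803), and the direction of both depended on the scaling. After quantile normalization they were -0.20 and -0.27 and passed as lower (adjusted p = 0.0149 and 0.0085), and after median-of-ratios scaling they were 0.15 and 0.15 and passed as higher (adjusted p = 0.0161 and 0.0312). Lines 32 and S8 differed by -0.04 (95% interval -0.16 to 0.08). The row of the long noncoding RNA Sox2ot overlaps Sox2, and their reads cannot be told apart where strand is not recorded, but its row held only 0.516 to 0.724 FPKM.

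Utf1 was at 426 and 441 FPKM in R1, 368 and 363 in 16-6, 499 and 511 in 32, 1193 in S8 and 611 in T2. The lines followed the same order as for Pou5f1, with 16-6 lowest, then R1, 32, T2 and S8, and the steps at the top were wider. Utf1 in S8 was 2.75-fold its R1 mean, a log2 difference of 1.46 ± 0.05 (adjusted p = 7.63e-05) that exceeded in size those of 93.2% of the rows tested. It was higher by 0.49 ± 0.05 in T2 (adjusted p = 0.00136) and lower by -0.25 ± 0.04 in 16-6 (adjusted p = 0.00615). In 32 it was 0.22 ± 0.04 (adjusted p = 0.00794), which became -0.066 (adjusted p = 0.272) after quantile normalization. Utf1 in S8 exceeded that of 32 by 1.24 ± 0.05 and that of T2 by 0.97 ± 0.06 on the log2 scale (adjusted p = 0.00014 and 0.00188).

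Nanog was at 177 and 174 FPKM in R1, 153 and 160 in 16-6, 321 and 327 in 32, 80.8 in S8 and 112 in T2. The line means spanned 4.01-fold, the widest range of the 5 factors, against 3.27-fold for Utf1, 2.09-fold for Pou5f1, 1.78-fold for Sox2 and 1.71-fold for Sall4. Nanog was the only factor to be highest in 32 and lowest in S8. Relative to R1 rose in 32, with a log2 difference of 0.88 ± 0.04 (adjusted p = 9.24e-05), and fell in S8, at -1.11 ± 0.05 (adjusted p = 0.000101), and in T2, at -0.65 ± 0.05 (adjusted p = 0.000553). Line 32 exceeded S8 by 1.99 ± 0.05, a difference larger than that of 98.1% of the rows tested, and T2 by 1.53 ± 0.05 (adjusted p = 4.82e-05 and 0.000111). In 16-6 the log2 difference from R1 was small, at -0.17 ± 0.04 (adjusted p = 0.016), and it missed the threshold without the first R1 library (adjusted p = 0.0605), without the first 16-6 library (adjusted p = 0.0932) and after median-of-ratios scaling (adjusted p = 0.201). The first 16-6 library had the widest limits for Nanog, at ± 9.68% of its value.

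A second gene model, Nanogpd, covers nearly the same bases as Nanog, chr6:122657801-122663573, so reads of this locus may have been shared between the rows. Nanogpd was at 33.0 and 34.2 FPKM in R1, 46.5 and 42.3 in 16-6, 66.9 and 77.6 in 32, 35.0 in S8 and 35.8 in T2. It held 15.7% of the summed value in the first R1 library and 30.2% in S8. With the rows summed, Nanog remained higher in 32 (0.92, adjusted p = 7.78e-05) and lower in S8 (-0.85, adjusted p = 0.000155) and T2 (-0.50, adjusted p = 0.000972) than in R1, but the S8 difference was no longer 2-fold and that of 16-6 was -0.06 (adjusted p = 0.224). This choice was added after the values were seen. Of the other 3 rows within 100 kb of Nanog, the germ cell and early embryo gene Dppa3 was at a mean of 53.0 FPKM in R1, 103 in 16-6, 240 in 32, 70.3 in S8 and 63.8 in T2, and Gdf3, a growth factor gene of the same region, was at 75.7, 78.4, 122, 110 and 72.4. The nearest of the 3, Slc2a3, a glucose transporter gene, was at 380 in R1, 256 in 16-6, 286 in 32, 185 in S8 and 267 in T2. Dppa3 and Gdf3 were highest in 32, as was Nanog, while Slc2a3 was highest in R1 and, as was Nanog, lowest in S8.

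Sall4 was at 123 and 127 FPKM in R1, 114 and 112 in 16-6, 178 and 188 in 32, 193 in S8 and 142 in T2. Lines 32 and S8 formed the upper range and the other libraries stayed within 112 to 142. Sall4 rose relative to R1 in 32 by 0.55 ± 0.04 (adjusted p = 0.000473) and in S8 by 0.62 ± 0.05 (adjusted p = 0.000455) on the log2 scale, and 32 and S8 differed by -0.08 (95% interval -0.21 to 0.06, adjusted p = 0.247). The differences of 16-6 (-0.14 ± 0.04, adjusted p = 0.0371) and T2 (0.18 ± 0.05, adjusted p = 0.0311) from R1 were near the threshold. After median-of-ratios scaling that of 16-6 was -0.04 (adjusted p = 0.384). With eBayes run without a trend, or without the filter on low values, both 16-6 (adjusted p = 0.0649 and 0.0573) and T2 missed it. Neither passed without the first R1 library (adjusted p = 0.0599 and 0.0888), the first 16-6 library (0.114 and 0.067) or the second 16-6 library (0.156 and 0.0669), and 16-6 did not pass without the second R1 library (0.125).

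**Figure D2:**
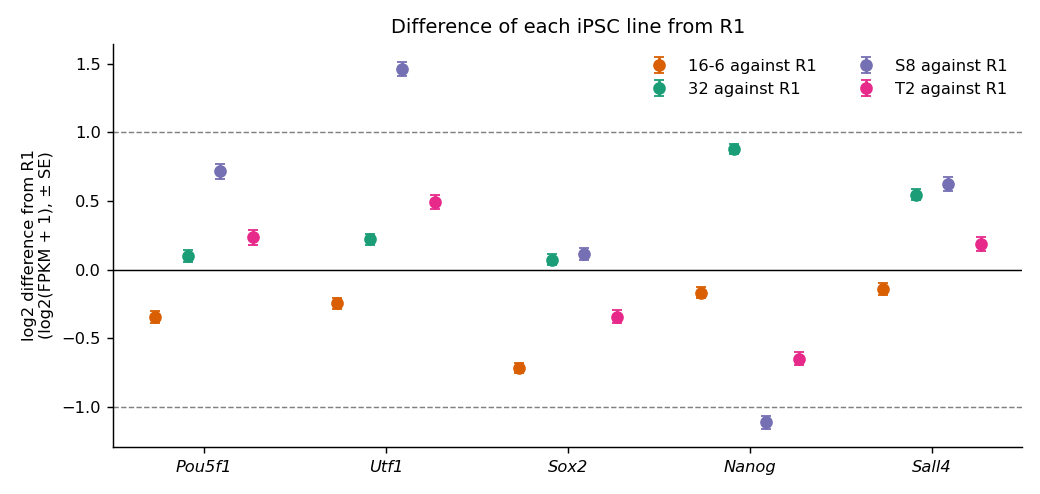
Log2 difference of each iPSC line from R1 for the 5 factors (vertical axis, log2(FPKM + 1), bars ± SE from limma), with dashed lines at the 2-fold limits. Only Utf1 (1.46) and Nanog (-1.11) in S8 lie past those limits, and the 16-6 points lie below 0 for every factor.

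Against R1, all 5 factors passed the adjusted p of 0.05 in 16-6, where 55.6% of all rows did, and all 5 were lower, as were 29.9% of all rows. This count was 3 without the first library of R1, without the first library of 16-6 or after median-of-ratios scaling. In 32, 3 of 5 passed, against 61.5% of all rows, in S8 4 of 5, against 66.7%, and in T2 5 of 5, against 57.9%. At 2-fold, none of the 5 passed in 16-6 (7.11% of all rows), 32 (9.77%) or T2 (10.5%), and 2 of 5, Utf1 and Nanog, passed in S8 (16.7%). The shares in 32 and S8 at the first threshold were thus near those of all rows. The median log2 difference of the 5 factors was -0.25 in 16-6, 0.22 in 32, 0.62 in S8 and 0.18 in T2, beside -0.03, -0.02, -0.03 and -0.03 over all rows tested.

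When the iPSC lines were averaged and set against R1, all 5 factors passed the adjusted p, as did 65.0% of all rows, and none passed at 2-fold, as did 6.41%. The log2 differences were 0.48 ± 0.03 for Utf1, 0.30 ± 0.04 for Sall4, 0.18 ± 0.04 for Pou5f1, -0.22 ± 0.03 for Sox2 and -0.26 ± 0.03 for Nanog, and that of Pou5f1 was -0.025 (adjusted p = 0.679) after quantile normalization. These means joined lines of opposite direction, since for every factor but Sox2 at least 1 iPSC line passed the test above R1 and at least 1 below it.

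**Figure D3:**
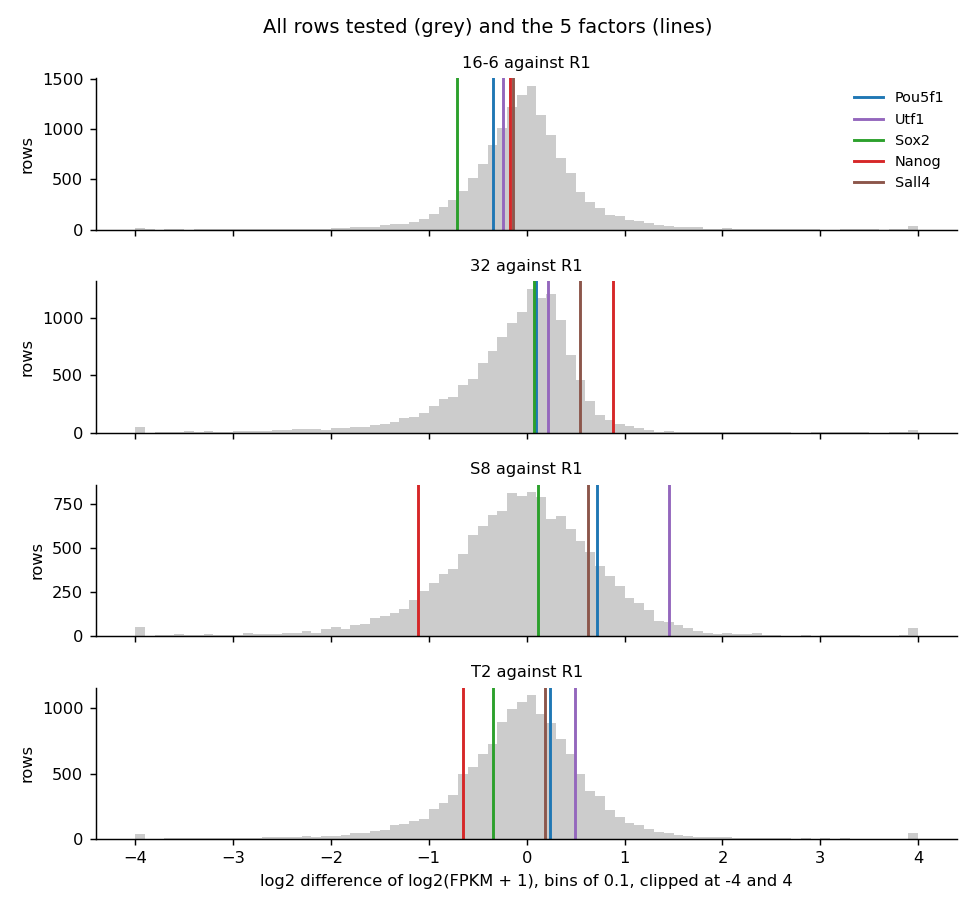
Number of rows (vertical axis) by log2 difference from R1 (horizontal axis, bins of 0.1, values beyond 4 drawn at the ends) for the 13693 rows tested in each iPSC line, with the 5 factors as coloured lines. The factors lie within the bulk of the rows in T2, in 16-6 apart from Sox2 and in 32 apart from Nanog. These 2 exceed in size 84.1% and 86.5% of the rows tested. In S8 Nanog (86.2%) and Utf1 (93.2%) lie toward opposite tails.

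Among the iPSC lines, 16-6 was lower than 32 in all 5 factors, which passed the adjusted p as did 60.4% of all rows (32.9% of all rows in the lower direction). After quantile normalization 4 of 5 passed, with Pou5f1 at -0.18 (adjusted p = 0.0501). Only Nanog passed at 2-fold (10.3% of all rows), at -1.05 ± 0.04, and it lost this after quantile normalization and with Nanogpd added (-0.98). In 16-6 against S8, all 5 passed (66.6% of all rows), with Pou5f1 and Utf1 past 2-fold (17.3%), and Nanog was the exception in direction, higher in 16-6 by 0.94 ± 0.05. In 16-6 against T2, all 5 passed (52.4%) and none at 2-fold (8.07%), again with Nanog alone higher in 16-6, by 0.48 ± 0.05. In 32 against S8, Pou5f1, Utf1 and Nanog passed (60.8%), the last 2 also at 2-fold (11.8%). In 32 against T2, 4 of 5 passed (52.3%), with Nanog past 2-fold (7.43%). In S8 against T2, all 5 passed (34.5%) and none at 2-fold (2.75%). S8 exceeded T2 in Utf1, by 0.97 ± 0.06, Pou5f1, by 0.48 ± 0.06, Sox2, by 0.46 ± 0.05, and Sall4, by 0.44 ± 0.06, and was below it in Nanog, by -0.46 ± 0.05. After quantile normalization only 2 of these 5 differences passed.

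The balance between the factors was then described by dividing each by Pou5f1 within the same library. This ratio does not change with the scaling of a library, nor with the share of RNA from cells that express none of the factors. Transgene and endogenous transcripts of Pou5f1 cannot be told apart in the iPSC lines, and every ratio there shares this limit. Utf1 stood at 0.704 and 0.694 of Pou5f1 in R1, 0.758 and 0.737 in 16-6, 0.755 and 0.764 in 32, 1.17 in S8 and 0.836 in T2. Sox2 stood at 0.434 and 0.413 in R1, 0.324 and 0.330 in 16-6, 0.412 and 0.420 in 32, 0.278 in S8 and 0.283 in T2. The Sox2 ratios of the 32 libraries lay within or just under the R1 range, and those of the other 3 iPSC lines lay lower.

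Nanog stood at 0.293 and 0.274 of Pou5f1 in R1, 0.315 and 0.325 in 16-6, 0.486 and 0.489 in 32, 0.0792 in S8 and 0.153 in T2, a range of 6.16-fold between line means. With Nanogpd added, the ratio still ran from 0.113 in S8 to 0.605 in the second 32 library. Sall4 held the most even ratio of the 4, at 0.203 and 0.201 in R1, 0.235 and 0.228 in 16-6, 0.270 and 0.281 in 32, 0.190 in S8 and 0.195 in T2, a range of 1.45-fold.

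**Figure D4:**
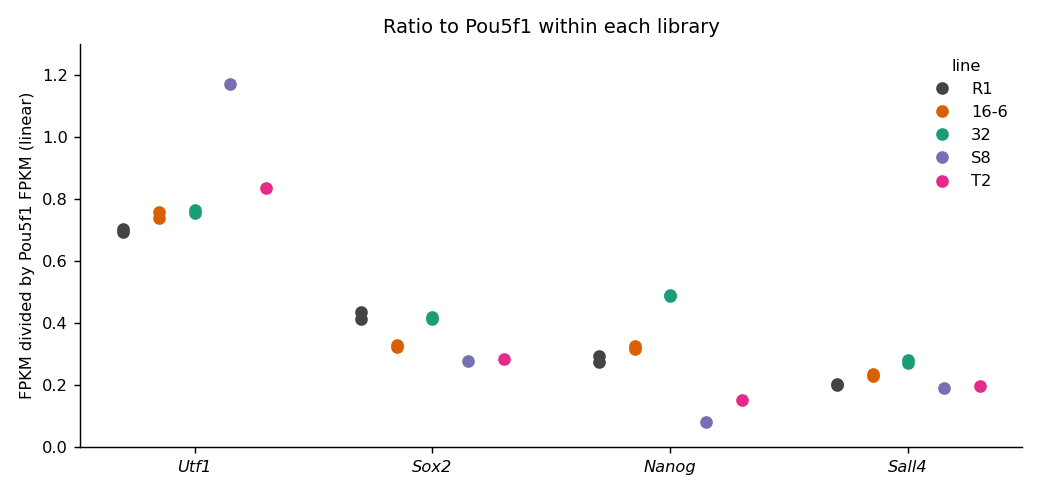
FPKM of 4 factors divided by that of Pou5f1 in the same library (vertical axis, linear, from 0), 1 point per library and 1 colour per line. The Nanog ratio runs from 0.0792 in S8 to 0.489 in 32, the Utf1 ratio passes 1 only in S8, and the Sall4 ratio stays between 0.190 and 0.281.

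Setting every row relative to Pou5f1 moves all rows against the change of Pou5f1 itself, so that the median log2 ratio difference over all rows was 0.32 in 16-6, -0.12 in 32, -0.75 in S8 and -0.26 in T2. Of 13692 rows, 7894 were called higher and 1586 lower in 16-6, and 979 higher and 10121 lower in S8. When the lines were tested against R1 on this scale, 3 of the 4 ratios passed in 16-6 (69.2% of all rows), 2 in 32 (60.9%), 3 in S8 (81.1%) and 3 in T2 (62.6%). The log2 ratio of Sox2 was lower in 16-6 (-0.37 ± 0.04), S8 (-0.60 ± 0.05) and T2 (-0.58 ± 0.05), with adjusted p = 0.000838, 0.000154 and 0.000526, and in 32 it was -0.03 (95% interval -0.13 to 0.08). The S8 value lay above the median of all rows there and the 16-6 and T2 values below it. The Nanog ratio fell in S8 (-1.83 ± 0.06) and T2 (-0.88 ± 0.06) and rose in 32 (0.78 ± 0.05), with adjusted p = 9.79e-06, 0.000205 and 0.000116. In 16-6 it was 0.18 ± 0.05 (adjusted p = 0.0192), below the median of all rows there. This call was lost without the second R1 library (0.13), the first 16-6 library (0.20) or the second 16-6 library (0.15). The Utf1 ratio rose in S8 by 0.74 ± 0.05 and in T2 by 0.26 ± 0.05 (adjusted p = 7.03e-05 and 0.00798) and did not pass in 16-6 (0.10, 95% interval -0.01 to 0.20) or 32 (0.12, adjusted p = 0.0559). The Sall4 ratio rose in 32 by 0.45 ± 0.04 and in 16-6 by 0.20 ± 0.04 (adjusted p = 0.000485 and 0.00734), of which the 16-6 value lay below the median of all rows, while S8 (-0.09, 95% interval -0.22 to 0.03) and T2 (-0.05, 95% interval -0.18 to 0.08) did not pass. Without the first 16-6 library, 1 of the ratios, that of Sox2, passed in that line.

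Fibroblast markers moved with some of these levels. The 12 fibroblast markers, including the collagens Col1a1 and Col1a2 and the surface protein Thy1, summed to 862 and 897 FPKM in R1, 1606 and 1588 in 16-6, 66.7 and 66.5 in 32, 384 in S8 and 555 in T2, and none of the 12 was at 0 in any library. Col1a1 was at 174 and 180 FPKM in R1, 600 and 566 in 16-6, 29.1 and 27.8 in 32, 167 in S8 and 243 in T2. The line lowest in Pou5f1, Sox2, Sall4 and Utf1, 16-6, was thus the highest in fibroblast markers, and 32 was the lowest. The line highest in each of these factors was S8 and not 32, so the order of the lines was not a mirror image. Of the list, 3 genes were highest in R1 instead. The proteoglycan genes Dcn and Lum were at means of 210.3 and 54.9 FPKM there, against 33.1 and 7.49 in 16-6, and the collagen gene Col3a1, named after its values were seen, was at 106 against 91.7. In bulk RNA, fewer pluripotent cells and less transcript per cell cannot be told apart, and the part of the feeder layer in the levels was not tested.

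Genes known to be bound by Oct4 and Sox2 were described through 7 targets. At 2-fold against R1, 1 was called lower in 16-6 and 2 in each of 32, S8 and T2, where 3.53%, 8.23%, 9.74% and 6.54% of all rows were lower, and 1 was called higher in S8 and in T2, where 6.93% and 3.95% of all rows were higher. Those lower were Zfp42 in every iPSC line and Spp1 in 32, S8 and T2. The median log2 difference of the list from R1 was -0.59 in 16-6, -0.21 in 32, -0.04 in S8 and -0.38 in T2. Spp1, the secreted phosphoprotein osteopontin, was at 1784 and 2053 FPKM in R1, 1258 and 1281 in 16-6, 318 and 319 in 32, 433 in S8 and 279 in T2. Zfp42, which encodes the ESC marker Rex1, was at 541 and 544 in R1, 141 and 144 in 16-6, 258 and 277 in 32, 119 in S8 and 92.9 in T2. It was lower than in R1 in every iPSC line, by log2 differences of -1.92, -1.02, -2.18 and -2.53 in that order. Tdgf1, the Nodal coreceptor Cripto, stayed between 421 and 663 FPKM. The target called higher, Lefty1, an inhibitor of Nodal signalling, was at 54.9 and 62.8 in R1, 309 in S8 and 296 in T2, and was chosen for mention after its values were seen.

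Proteins that bind Oct4 or Nanog were measured through 12 genes. At 2-fold against R1, 1 was lower in 16-6, 0 changed in 32, 1 was higher and 3 were lower in S8, and 1 was lower in T2, beside 7.11%, 9.77%, 16.7% and 10.5% of all rows called in either direction in these lines. Nr0b1 (Dax1), an orphan receptor that binds Oct4, accounted for the calls in 16-6 and T2, at 149 and 143 FPKM in R1, 57.0 and 56.3 in 16-6, 124 and 115 in 32, 48.6 in S8 and 29.3 in T2. Rif1, a telomere and replication timing protein, was at 165 and 160 in R1 and 60.5 in S8. Trim28, the corepressor Kap1 and the most abundant of the list, was at 872 and 940 in R1 and 1751 in S8. Of the 11 genes of NuRD, the deacetylase complex that Sall4 recruits, none was called at 2-fold in 16-6, 32 or T2, and in S8 2 were called higher and 1 lower (16.7% of all rows called). The median log2 difference of the list was 0.07 in 16-6, 0.33 in 32, 0.36 in S8 and 0.32 in T2. Mbd3, a subunit of the complex, rose from 61.5 and 72.8 FPKM in R1 to 203 in S8, and Gatad2b fell from 54.3 and 54.1 to 17.0. Rbbp7, Hdac1 and Chd4 were the highest of the list, at between 143 and 329 FPKM.

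Relatives of the factors were followed through 15 POU, SOX and SALL genes, of which 14 were tested. Pou3f1 (Oct6), a POU gene of the later epiblast and neural cells, was at 7.38 and 8.72 FPKM in R1, 17.1 and 16.0 in 16-6, 13.8 and 13.5 in 32, 125 in S8 and 82.3 in T2. Sox3, the closest relative of Sox2 together with Sox1, was at 2.21 and 2.47 in R1, 5.68 and 5.53 in 16-6, 5.26 and 6.05 in 32, 34.1 in S8 and 29.1 in T2. In S8, 6 relatives were called higher and 2 lower at 2-fold, in T2 4 and 1, in 32 1 and 0, and in 16-6 none. Of all rows, 6.93% were higher and 9.74% lower in S8, 3.95% and 6.54% in T2, and 1.54% and 8.23% in 32. Sall1, a zinc finger relative of Sall4 that also stands in the list of partners, was highest in R1 at 85.6 and 83.2 and lowest in 16-6 at 46.5 and 44.9. Sox15 lay between 12.6 and 30.0 in all libraries.

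**Figure D5:**
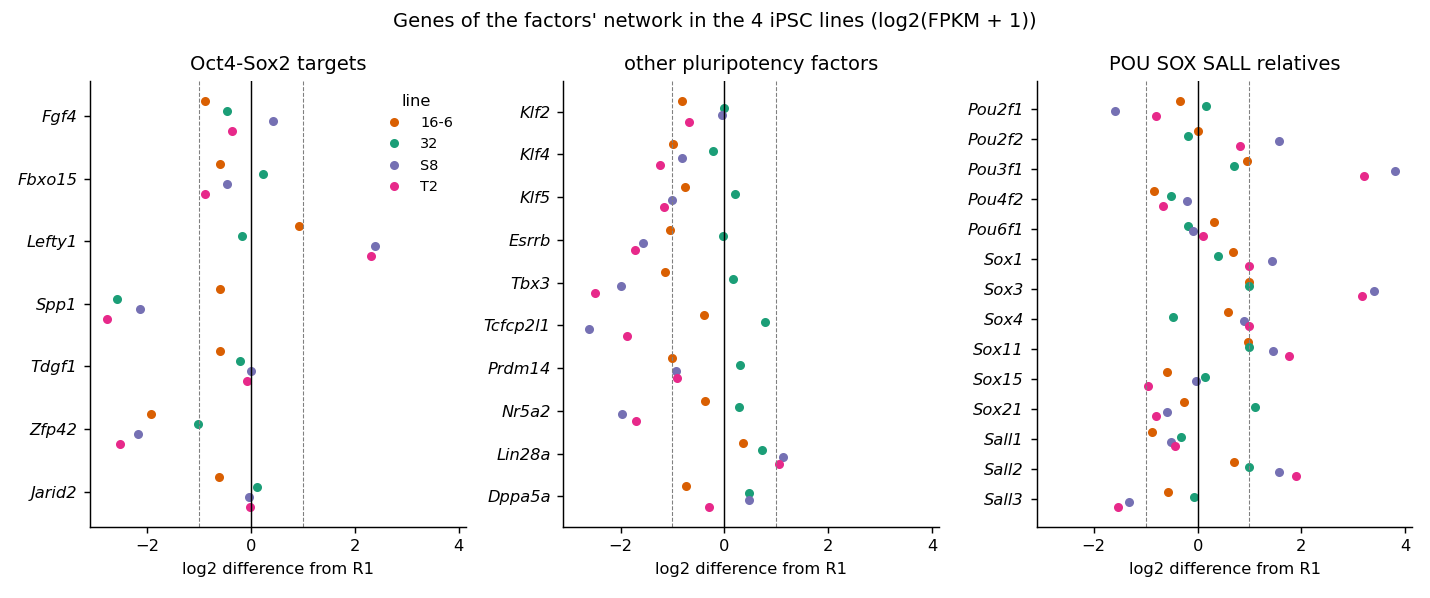
Log2 difference from R1 (horizontal axis, log2(FPKM + 1), dashed lines at 2-fold) of the tested genes of 3 lists in each iPSC line, 1 colour per line. Pou3f1 reaches 3.81 and Sox3 3.39 in S8, while Tcfcp2l1 lies at -2.61 there.

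Other pluripotency factors were followed through 10 genes. At 2-fold against R1, 3 were lower in 16-6, none changed in 32, 5 were lower and 1 higher in S8, and 6 were lower and 1 higher in T2, with median log2 differences of -0.79, 0.24, -0.97 and -1.20. The shares of all rows called lower were 3.53%, 8.23%, 9.74% and 6.54%. At the adjusted p alone, 9 were lower and 1 higher in 16-6, 1 and 5 in 32, 7 and 1 in S8, and 8 and 1 in T2. Of the 13693 rows tested, 4092 were lower and 3518 higher at that threshold in 16-6, 4511 and 3917 in 32, 4738 and 4389 in S8, and 4237 and 3695 in T2. Tcfcp2l1 (Tfcp2l1), a LIF-responsive activator of naive genes, was at 56.3 and 54.6 FPKM in R1, 42.0 and 42.5 in 16-6, 95.8 and 96.4 in 32, 8.21 in S8 and 14.3 in T2. Tbx3, a T-box factor of the same circuit, was at 42.5 and 39.6 in R1, 17.7 and 18.3 in 16-6, 46.3 and 46.5 in 32, 9.50 in S8 and 6.51 in T2. Lin28a, an RNA-binding protein that blocks let-7 maturation, went the other way, from 168 and 185 in R1 to 387 in S8 and 367 in T2. Klf2 lay between 155 and 295. Dppa5a was at 2362 and 1508 in the 32 libraries, a wider gap between replicates than any of the 5 factors showed.

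Of the 8 lineage regulators tested, 2 were called higher at 2-fold in 16-6 and 3 in 32, where 3.58% and 1.54% of all rows were. They were T and Eomes in both lines and, named after its values were seen, Mixl1 in 32 (1.15). T (Brachyury), a mesoderm factor, was at 1.87 and 2.28 FPKM in R1, 11.8 and 11.6 in 16-6, 18.8 and 17.5 in 32, 0.578 in S8 and 2.85 in T2. Eomes, a factor of the primitive streak and trophoblast, was at 2.91 and 2.93 in R1, 9.13 and 8.50 in 16-6 and 14.4 and 15.3 in 32. Pax6 stayed between 1.84 and 4.23. None of the 8 tested passed at 2-fold in S8 or T2, where 16.7% and 10.5% of all rows did.

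Likeness of pattern was measured by Pearson's r of log2(FPKM + 1) over the 8 libraries, as a description, since replicate libraries of a line share their source. Among the factors, Pou5f1 and Utf1 were the most alike (r = 0.97), followed by Pou5f1 and Sall4 (0.79), Sox2 and Sall4 (0.74), Sall4 and Utf1 (0.74) and Pou5f1 and Sox2 (0.71). Nanog was unlike the rest, with r = -0.53 with Utf1, -0.40 with Pou5f1, 0.17 with Sall4 and 0.24 with Sox2. Over 9328 rows of sufficient level and spread, the nearest to Pou5f1 were Rfc3, Wrap53 and Klhdc4 (r = 0.99 each). The nearest to Sox2 were Gyltl1b, Morc1 and 2610305D13Rik, to Nanog Zfp568, Zfp704 and Ormdl1, to Sall4 Nol6, Prpf19 and Lsm4, and to Utf1 Ap2a1, 2410002F23Rik and H2afx, with r between 0.99 and 1.00. These 8 points come from 5 lines. No factor was among the 3 rows nearest to another.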

How the data were processed

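RNA-seq was analysed for 8 libraries of 5 lines, grouped by the sample titles. Reads were aligned by the authors to mm9 (UCSC genes) with TopHat2 2.0.4, uniquely matching alignments were kept, and expression was computed with Cufflinks (2.0.0 in the submitters' processing notes). The deposited FPKM, which the methods of the study call RPKM, sum to between 1.14408e+10 and 1.60283e+10 per library for a reason not given in the sources used here, and were divided by 12725.7. Implied fragments were the square of 2 × FPKM / (upper limit − FPKM). They follow the width of the limits and are not counted fragments, and the limits do not cover the spread between libraries. The lowest value for a factor was 426, for Nanog in the first 16-6 library at 153 FPKM. In the second 16-6 library it was 2571 at 160 FPKM, and the highest value for a factor was 17267. Counts and alignments were not used here.

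Rows that reached an FPKM of 1 in any library were fitted on log2(FPKM + 1) with R 4.3.3 and limma 3.58.1 (trended eBayes), with all libraries in 5 groups and 3 residual degrees of freedom. Fold changes on this scale understate those of low genes. The ratio fit subtracted log2(FPKM + 1) of Pou5f1 in the same library from every row, so that all its tests share the error of Pou5f1. Adjusted p-values are Benjamini-Hochberg values over all rows tested. The fit was tested on simulated data. Replicates of a line differed by more than the counting noise of the implied fragments and were kept as separate libraries. As a mean over rows, which outlying rows can raise, the variance was 4.72 to 5.93 times that expected. The study calls them biological replicates without saying what was separate, so p-values measure the spread between these libraries.

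The factors and gene lists were chosen with earlier results of these data known. From the list of Oct4 and Sox2 targets, 1 gene is not reported here. Named genes were, per list, the 3 with the highest mean FPKM and the 2 with the largest difference from R1 at 2-fold, and, per factor, the 3 rows of highest r among rows with a mean FPKM of at least 5 and an SD of at least 0.1. Alternatives were pseudocount 0.1, other filters, quantile normalization, median-of-ratios scaling, eBayes without a trend, each replicate left out, a replicate block, the R1, 16-6 and 32 libraries only, and Nanog summed with Nanogpd, the last 2 chosen after seeing the data. Sequences were read from RefSeq tables. Python 3.11.15, pandas 2.3.3, numpy 2.4.6, scipy 1.17.1 and matplotlib 3.10.9 were used.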

Additional observations from a re-analysis of the deposited data

Results flagged for a closer look

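Among the iPSC lines, 6 differences of single factors were themselves past the adjusted p of 0.05 and 2-fold in limma, so that the lines' differences from R1 were not alike. Nanog in 32 exceeded that in S8 by 1.99 and that in T2 by 1.53 on the log2 scale, and in 16-6 against 32 it was -1.05. Pou5f1 in 16-6 against S8 was -1.06. Utf1 was -1.71 in 16-6 against S8 and -1.24 in 32 against S8. Of these, 5 involve S8 or T2, which had 1 library each. No line had the 4 libraries that a search for a library apart from its group would need.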

How the results depend on the processing

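Of 881 tests of single factors under the alternatives, 843 kept their direction and their side of the threshold. The 0.1 pseudocount, the filter on every library and the libraries of 32 left out changed none of them. The number of factors called in 16-6 against R1 went from 5 to 3 after median-of-ratios scaling, and lay between 3 and 5 with each replicate left out, and that in 32 against R1 went from 3 to 5 with the same scaling. The number in S8 against T2 went from 5 to 2 after quantile normalization. At 2-fold, the number in 16-6 against 32 went from 1 to 0 after quantile normalization and, with Nanogpd added, to 0, and that in S8 against R1 then went from 2 to 1. The ratios called in 16-6 lay between 1 and 3 with each replicate left out, and 1 was the count without the first 16-6 library. Quantile normalization turned the log2 differences from R1 of Pou5f1 in 32 (-0.21), Sox2 in 32 (-0.20), Utf1 in 32 (-0.066), Sox2 in S8 (-0.27) and Pou5f1 in the iPSC mean (-0.025), and Sox2 in 32 against S8 turned to 0.073, or to 0.0023 with median-of-ratios scaling. The ratio of Sox2 in 32, not called, lay between -0.062 and 0.0093 with each replicate left out, the last without the first R1 library. The causes were not tested. Rows called at 2-fold against R1 rose with pseudocount 0.1 from 974 to 1690 in 16-6, from 1338 to 2258 in 32 and from 1437 to 2198 in T2, and fell to 565, 740 and 940 where every library had to reach an FPKM of 1, which tests fewer rows.

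Replicate numbers did not pair the samples, as the correlation of the difference between libraries 1 and 2 was -0.10 between R1 and 16-6, 0.00 between R1 and 32 and 0.03 between 16-6 and 32. With the number as a replicate block, 7288 rows were called in 16-6 and 8164 in 32, beside 7610 and 8428 without it, and 4 factors in 16-6 in place of 5 (Sall4, adjusted p = 0.0523). S8 and T2 could not enter this fit. With 1 library for S8 and for T2, their differences carry no replicate check of their own.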
